A study of Mus musculus with 12 samples.

Results

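The collagens, laminins, small matrix proteoglycans and related matrix proteins of mouse skin were described in 58 genes, taken by symbol alone from the 7902 genes of the count tables. The symbols covered collagen chains, laminin chains, nidogens, perlecan, fibronectin, tenascins, periostin, the Sparc and thrombospondin families, leucine-rich proteoglycans, versican, matrilins, collagen hydroxylases, emilins, fibulins, latent TGF-beta binding proteins and CCN proteins. RNA-seq libraries came from 3 groups of 4. M+NSPCC1 skin came from mice put through the ageing model and given NSPCC1, a grape seed extract. Model skin came from mice given D-galactose, a sugar used to induce ageing-like change, together with UVA and UVB light, and Ctrl skin from control mice. The sources used here name no dose, duration, strain, sex, age, body site or route. Nor do the labels say that the 4 libraries of a group came from separate mice, so each p-value reflects only how far these libraries spread, and that spread may be technical. In bulk tissue, fewer cells of a type and less RNA per cell cannot be told apart.

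Fibrillar collagens form the cables that give dermis its tensile strength, and small leucine-rich proteoglycans such as decorin and lumican coat those fibrils and set their diameter and spacing. Basement membranes are thin sheets under the epidermis and around hair follicles, vessels, muscle fibres and nerves. Their laminins are trimers of an alpha, a beta and a gamma chain, and the alpha chain differs between tissues. Dermal fibroblasts make most of the fibrillar matrix, and a decline of it is a well-known feature of aged and light-damaged skin.

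The 58 are part of a larger family: 104 protein-coding genes of the RefSeq mouse annotation (GRCm38.p6) carry a symbol of these kinds, and the type I collagen genes, Col4a1, Col4a2, Col17a1 and Lamb3 are among those not analysed here. One of the 58, Col4a3bp, matches by symbol only, since it encodes a ceramide transfer protein. Summed estimated counts ran between 9717338 and 10952623 per library, and 7638 genes, 56 of the 58 among them, had enough counts to be tested. Ccn6 and Col6a5 were too low. Col6a5, a type VI collagen chain, was counted only in M+NSPCC1 library 1 (15.1 CPM, counts scaled to library size) and Model library 3 (19.0 CPM). As a check of the label skin, the keratinocyte genes Krt5 and Trp63 were present in every group, at means of 3525, 4351 and 2641 CPM for Krt5 and 433, 481 and 145 CPM for Trp63 in M+NSPCC1, Model and Ctrl skin. The other of the 3 basal keratinocyte markers measured fell in Model against Ctrl skin.

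Per transcript length (FPKM, fragments scaled to length and library size), Sparc, Col3a1 and Dcn were the 3 highest members in every group. Sparc encodes a collagen-binding glycoprotein and averaged 744 ± 54.7 FPKM in M+NSPCC1 skin, 678 ± 97.2 FPKM in Model skin and 959 ± 56.7 FPKM in Ctrl skin (SD, n = 4 each; throughout, ± marks the SD of a level or share and the SE of a log2 fold change). Postn, which encodes periostin, a protein that helps assemble collagen fibrils, stood at rank 4 in M+NSPCC1 skin, at rank 4 in Model skin and at rank 6 in Ctrl skin. Together the 58 genes took between 1.62 and 2.06% of all summed counts in M+NSPCC1 libraries, between 1.17 and 2.39% in Model libraries and between 2.53 and 2.88% in Ctrl libraries. The highest Model library therefore lay below the lowest Ctrl library.

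Model against Ctrl skin was the comparison that the ageing treatment addresses. Of the 56 tested members, 40 fell and 11 rose in Model skin (edgeR, quasi-likelihood, with p adjusted after Benjamini and Hochberg below 0.05). That is 71.4% and 19.6% of the members, beside 41.4% and 49.1% of all genes tested, of which 90.5% passed in either direction. Counts by class, by other gene list or by cell type marker in this comparison stand beside the same 41.4% fallen and 49.1% risen. The median log2 fold change was -1.19 over the members and 0.26 over all genes tested. The 4 Model libraries all lay below the 4 Ctrl libraries for 39 members and all above them for 10, where the same held for 39.8% and 43.2% of all genes. By kind of member, the median was -1.18 for the 5 fibrillar collagens, -1.14 for the 14 basement membrane members and -1.2 for the other 37 tested. Among the 5 that did not pass were Lamb1, Col27a1, Col16a1 and Bgn.

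**Figure D1:**
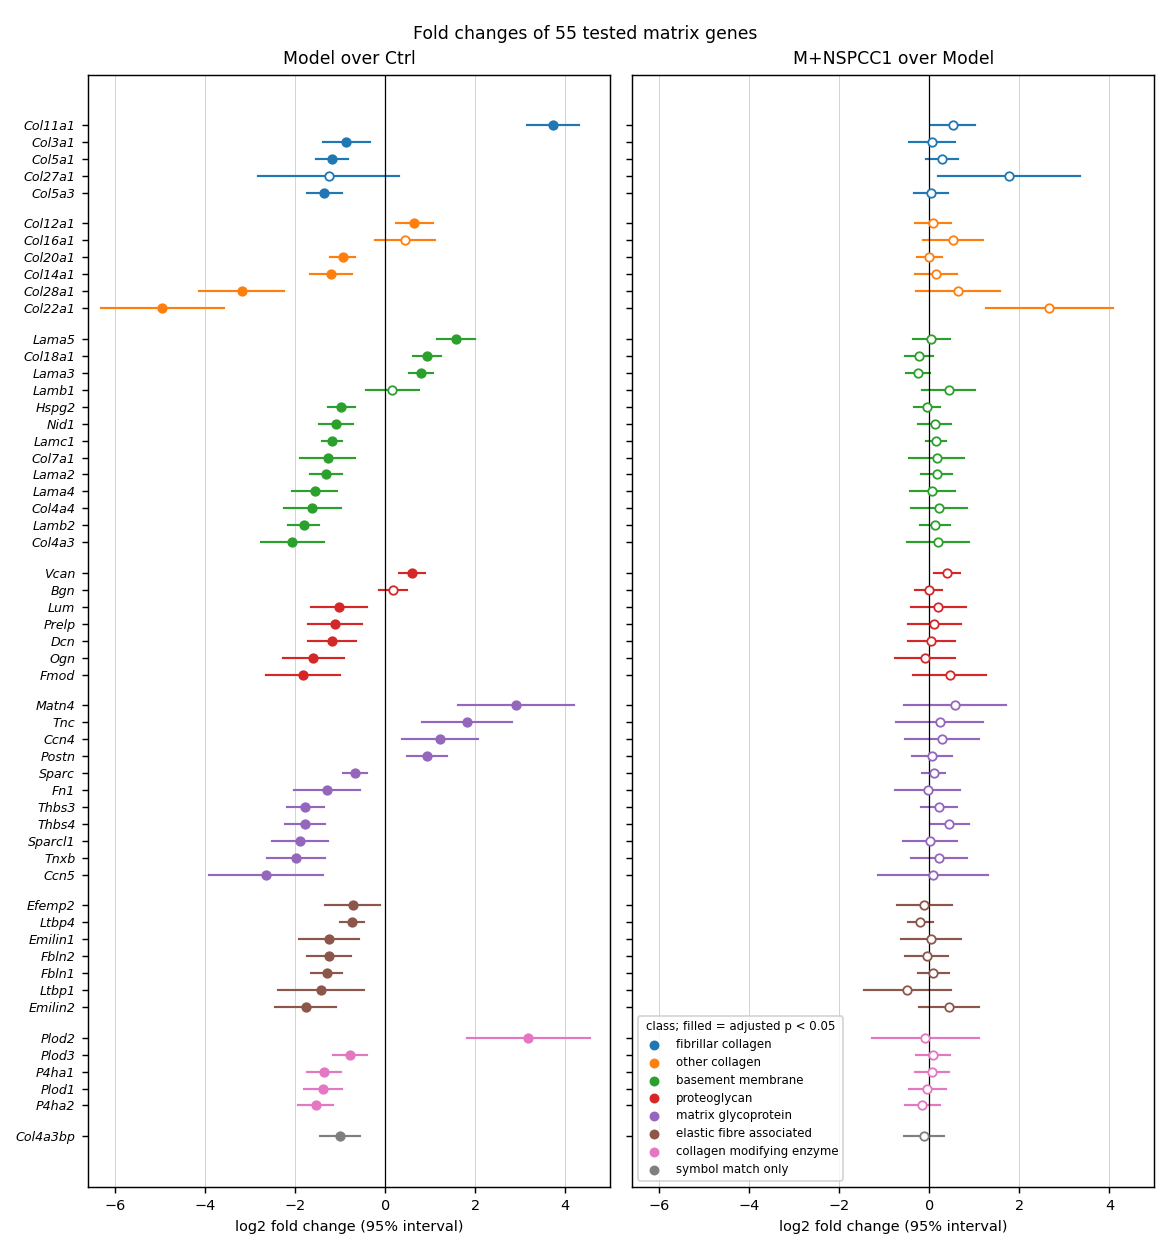
Log2 fold change (horizontal axis, point) with its 95% interval (line) of 55 tested members, Model over Ctrl on the left and M+NSPCC1 over Model on the right, coloured by class and ordered by size within class. Filled points passed the adjusted p threshold: 51 do on the left, most of them below 0, and none does on the right.

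Among the fibrillar collagens 3 of 5 fell, 1 rose and 1 did not pass. Col3a1, which encodes type III collagen, a main fibril component of skin, had 4675, 4672, 4498 and 3651 CPM in M+NSPCC1 skin, 3352, 2562, 6394 and 4552 CPM in Model skin, and 7590, 7645, 8726 and 6658 CPM in Ctrl skin. Model library 3 came close to the lowest Ctrl library without reaching it, and the fall in Model against Ctrl skin was -0.86 ± 0.24 (log2 fold change ± SE, edgeR adjusted p = 0.00471). Col5a1, a chain of type V collagen, which starts fibril assembly, had 456, 430, 427 and 358 CPM in M+NSPCC1 skin, 312, 234, 456 and 370 CPM in Model skin, and 760, 790, 795 and 771 CPM in Ctrl skin. Its Ctrl libraries were nearly equal and its Model libraries spread widely below them, with a log2 fold change of -1.18 ± 0.17 (edgeR adjusted p = 4.43e-05). Col5a3, another type V chain, had 241, 213, 241 and 170 CPM in M+NSPCC1 skin, 183, 166, 270 and 225 CPM in Model skin, and 637, 577, 506 and 434 CPM in Ctrl skin, and fell by 1.35 ± 0.18 on the log2 scale.

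The exception was Col11a1, a chain of type XI collagen, the minor fibrillar collagen best known from cartilage. Its level was 153, 144, 149 and 139 CPM in M+NSPCC1 skin, 130, 85.2, 78.7 and 112 CPM in Model skin, and 8.30, 11.7, 4.29 and 6.26 CPM in Ctrl skin. Every Model library was many times above every Ctrl library, and the log2 fold change of 3.73 ± 0.26 (edgeR adjusted p = 2.96e-07) was the highest among the tested members. Type V and type XI chains can share a fibril. Their shares of RNA, which do not give the make-up of fibrils, differed between the groups. Col11a1 made up 23.0 ± 1.94% of the summed FPKM of Col11a1, Col5a1 and Col5a3 in M+NSPCC1 skin, 19.8 ± 5.71% in Model skin and 0.685 ± 0.255% in Ctrl skin. Summed counts were whole numbers in 12 libraries for Col5a1 and Col5a3 and in 3 for Col11a1. Part of the Col11a1 reads may thus be missing from the share. Col27a1, another fibrillar collagen of cartilage, had 10.8, 7.97, 7.65 and 7.72 CPM in M+NSPCC1 skin, 0, 2.32, 2.58 and 5.03 CPM in Model skin, and 5.31, 6.74, 7.51 and 4.21 CPM in Ctrl skin. The Model and Ctrl ranges overlapped (log2 fold change -1.25 ± 0.72, edgeR adjusted p = 0.114), and it passed as lower without Model library 1 (-0.84, edgeR adjusted p = 0.0362), without Model library 4 (-1.86, edgeR adjusted p = 0.041) and by limma with no filter (-0.25, adjusted p = 0.0363).

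Among the 6 tested collagens of other kinds, most of them molecules that sit on fibril surfaces, 4 fell, 1 rose and 1 did not pass. Col14a1 had 193, 204, 220 and 178 CPM in M+NSPCC1 skin, 153, 121, 264 and 182 CPM in Model skin, and 330, 438, 517 and 368 CPM in Ctrl skin. All Model libraries were below all Ctrl libraries (log2 fold change -1.2 ± 0.22, edgeR adjusted p = 0.000286). Its close relative Col12a1 went the other way, with 388, 304, 330 and 292 CPM in M+NSPCC1 skin, 340, 201, 380 and 325 CPM in Model skin, and 158, 194, 207 and 235 CPM in Ctrl skin. Model library 2 lay inside the Ctrl range, and the rise was 0.65 ± 0.18 on the log2 scale (edgeR adjusted p = 0.00592). The steepest falls among the 56 were in collagens best known from other tissues. Col22a1, a collagen of muscle-tendon junctions, had 0.733, 0.742, 0.638 and 0.533 CPM in M+NSPCC1 skin, 0, 0.185, 0 and 0.186 CPM in Model skin, and 3.65, 2.98, 3.11 and 3.35 CPM in Ctrl skin. Col28a1, a collagen found around peripheral nerves, had 3.12, 4.08, 5.74 and 3.37 CPM in M+NSPCC1 skin, 1.33, 1.21, 5.26 and 2.70 CPM in Model skin, and 25.8, 28.8, 23.5 and 17.8 CPM in Ctrl skin. Both had a wide gap between Model and Ctrl libraries. Col22a1 had 26.8 to 32.8 estimated counts in Ctrl, at most 2 in Model and at most 8 in M+NSPCC1 libraries. It had enough counts to be tested only through its Ctrl libraries, and such a filter favours a fall. The log2 fold changes were -4.95 ± 0.63 for Col22a1 and -3.19 ± 0.44 for Col28a1 (edgeR adjusted p = 2.1e-05 and 3.67e-05).

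The basement membrane members did not move as one group: 9 of 14 fell (64.3%), 3 rose (21.4%) and 2 did not pass. Over all genes tested 41.4% fell and 49.1% rose. Among the 8 laminin chains 4 fell (50%), near the share over all genes, and 2 rose (25%). Lama5, an alpha chain found in epidermal and hair follicle basement membranes among others, had 246, 171, 194 and 211 CPM in M+NSPCC1 skin, 197, 207, 129 and 261 CPM in Model skin, and 69.8, 56.8, 66.1 and 75.8 CPM in Ctrl skin. The lowest Model library was well above the highest Ctrl library, with a log2 fold change of 1.57 ± 0.19 (edgeR adjusted p = 1.64e-05). Lama3, the alpha chain of the laminin that anchors basal keratinocytes, had 69.5, 47.7, 54.9 and 57.9 CPM in M+NSPCC1 skin, 65.9, 59.8, 75.5 and 74.2 CPM in Model skin, and 40.5, 35.3, 38.9 and 43.4 CPM in Ctrl skin. It also rose without overlap, by 0.80 ± 0.12 on the log2 scale (edgeR adjusted p = 9.37e-05).

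Lama2 and Lama4, alpha chains found in muscle, nerve or vessel basement membranes, fell. Lama2, of muscle and Schwann cell basement membranes, had 95.1, 104, 93.7 and 63.7 CPM in M+NSPCC1 skin, 76.1, 69.3, 95.8 and 77.0 CPM in Model skin, and 175, 204, 234 and 180 CPM in Ctrl skin. Lama4, of vessel basement membranes, had 108, 127, 108 and 85.7 CPM in M+NSPCC1 skin, 89.6, 64.5, 156 and 99.3 CPM in Model skin, and 251, 320, 343 and 296 CPM in Ctrl skin. Neither gene's Model libraries reached the Ctrl range (log2 fold changes -1.32 ± 0.16 and -1.56 ± 0.23, edgeR adjusted p = 1.39e-05 and 6.47e-05). On the FPKM scale the order of the alpha chains therefore differed between the groups. Lama5 made up 32.2 ± 4.44% of the 4 alpha chains measured in M+NSPCC1 skin, 31.7 ± 9.24% in Model skin and 7.01 ± 1.28% in Ctrl skin, while Lama4 made up 32.4, 30.6 and 60.2%. Summed counts were whole numbers in 12 libraries for Lama4 and in 0 for Lama2, Lama3 and Lama5. Part of the reads of those 3 may thus be missing from the shares.

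**Figure D2:**
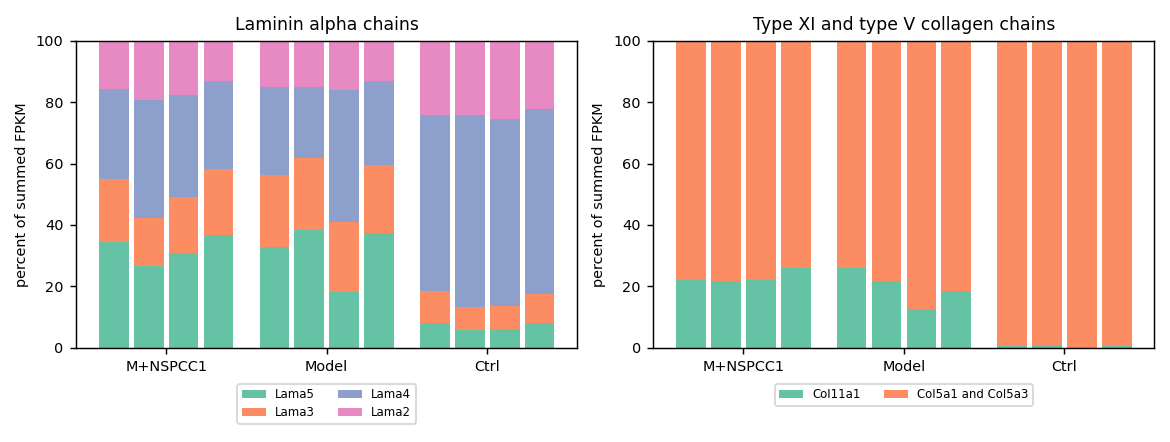
Share of each chain gene in the summed FPKM of its kind (vertical axis, percent), 1 bar per library, for 4 laminin alpha chains (left) and for type XI against type V collagen chains (right). Lama5 holds between 18.3 and 38.4% in each Model library and at most 8.24% in each Ctrl library, and Col11a1 at least 12.5% in each Model library and at most 1.02% in each Ctrl library.

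The beta chains also split. Lamb2, common in muscle and vessel laminins, had 148, 133, 127 and 143 CPM in M+NSPCC1 skin, 139, 81.7, 143 and 137 CPM in Model skin, and 391, 458, 467 and 438 CPM in Ctrl skin. That is a fall of 1.81 ± 0.16 on the log2 scale with no overlap (edgeR adjusted p = 1.14e-06). For Lamb1, the other beta chain measured, the Model and Ctrl ranges overlapped and the log2 fold change was 0.16 ± 0.27 (edgeR adjusted p = 0.581). Lamb1 made up 54.5 ± 1.86% of both beta chains in M+NSPCC1 skin, 49.1 ± 12.3% in Model skin and 19.9 ± 6.33% in Ctrl skin. Lamc1, the gamma chain of most laminins, had 453, 423, 391 and 365 CPM in M+NSPCC1 skin, 367, 315, 419 and 373 CPM in Model skin, and 796, 805, 921 and 838 CPM in Ctrl skin. It fell in Model skin by 1.19 ± 0.10 on the log2 scale, with no overlap (edgeR adjusted p = 1.05e-06).

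The proteins that tie the membrane together fell. Nid1, the linker between laminin and type IV collagen, had 454, 509, 450 and 390 CPM in M+NSPCC1 skin, 397, 292, 568 and 406 CPM in Model skin, and 861, 873, 1021 and 791 CPM in Ctrl skin, which left a gap between the Model and Ctrl libraries. Hspg2, which encodes the heparan sulfate proteoglycan perlecan, had 397, 318, 344 and 331 CPM in M+NSPCC1 skin, 354, 302, 418 and 363 CPM in Model skin, and 662, 707, 871 and 584 CPM in Ctrl skin. In Model against Ctrl skin Nid1 fell by 1.09 ± 0.17 and Hspg2 by 0.98 ± 0.13 on the log2 scale (edgeR adjusted p = 0.000114 and 3.93e-05). Col7a1, the anchoring fibril collagen that ties the epidermal membrane to dermis, had 84.2, 46.5, 49.7 and 54.8 CPM in M+NSPCC1 skin, 50.8, 32.3, 75.3 and 51.4 CPM in Model skin, and 167, 126, 83.7 and 130 CPM in Ctrl skin, and fell by 1.27 ± 0.28 in Model skin. Col4a3, a type IV chain known mainly from kidney, had 3.39, 5.10, 5.74 and 4.08 CPM in M+NSPCC1 skin, 3.50, 3.15, 4.66 and 4.66 CPM in Model skin, and 26.1, 18.8, 10.6 and 11.4 CPM in Ctrl skin. It fell by 2.06 ± 0.32 and its partner chain Col4a4 by 1.62 ± 0.29, at low levels throughout. Col18a1, a membrane collagen whose end fragment is endostatin, was the remaining basement membrane member to rise, at 366, 278, 324 and 297 CPM in M+NSPCC1 skin, 338, 327, 356 and 461 CPM in Model skin, and 165, 195, 238 and 179 CPM in Ctrl skin (log2 fold change 0.93 ± 0.14, edgeR adjusted p = 8.76e-05).

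Of the 7 proteoglycans 5 fell, and all 5 belong to the small leucine-rich kind. Dcn, which encodes decorin, had 881, 1173, 1071 and 866 CPM in M+NSPCC1 skin, 879, 626, 1594 and 775 CPM in Model skin, and 2143, 2242, 2311 and 2101 CPM in Ctrl skin. Lum, which encodes lumican, had 424, 438, 412 and 323 CPM in M+NSPCC1 skin, 292, 205, 625 and 270 CPM in Model skin, and 680, 686, 807 and 657 CPM in Ctrl skin. For both, Model library 3 was far above the other 3 Model libraries and still below every Ctrl library (log2 fold changes -1.18 ± 0.24 and -1.02 ± 0.28, edgeR adjusted p = 0.000709 and 0.00475). Fmod, which encodes fibromodulin, had 35.9, 18.1, 20.6 and 24.2 CPM in M+NSPCC1 skin, 19.9, 8.80, 30.4 and 13.3 CPM in Model skin, and 66.6, 76.2, 36.2 and 77.8 CPM in Ctrl skin. Ogn, which encodes osteoglycin, had 79.1, 246, 146 and 137 CPM in M+NSPCC1 skin, 138, 113, 242 and 157 CPM in Model skin, and 547, 498, 431 and 488 CPM in Ctrl skin. Neither overlapped between Model and Ctrl, and Fmod fell by 1.83, Ogn by 1.60 and Prelp, which encodes prolargin, by 1.11.

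The remaining proteoglycans did not fall. Bgn, which encodes biglycan, the closest relative of decorin, had 1092, 1019, 1057 and 905 CPM in M+NSPCC1 skin, 992, 755, 1329 and 1045 CPM in Model skin, and 883, 939, 905 and 932 CPM in Ctrl skin. The Ctrl values lay within the Model range, and the log2 fold change was 0.17 with a 95% interval of -0.14 to 0.48 (edgeR adjusted p = 0.255). It passed as higher without Model library 2 (0.33, edgeR adjusted p = 0.0131), with libraries scaled by relative depth (0.34, edgeR adjusted p = 0.0278) and by limma on FPKM (0.32, adjusted p = 0.038 to 0.0438 over 3 settings). Biglycan made up 43.4 ± 3.68% of the summed FPKM of Bgn and Dcn in M+NSPCC1 skin, 45.4 ± 5.04% in Model skin and 23.7 ± 0.908% in Ctrl skin, with no overlap between Model and Ctrl libraries. Vcan, which encodes versican, a large water-holding proteoglycan, had 267, 217, 203 and 233 CPM in M+NSPCC1 skin, 193, 149, 179 and 181 CPM in Model skin, and 97.1, 111, 146 and 113 CPM in Ctrl skin. It rose by 0.59 ± 0.13 on the log2 scale in Model skin (edgeR adjusted p = 0.00129).

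**Figure D3:**
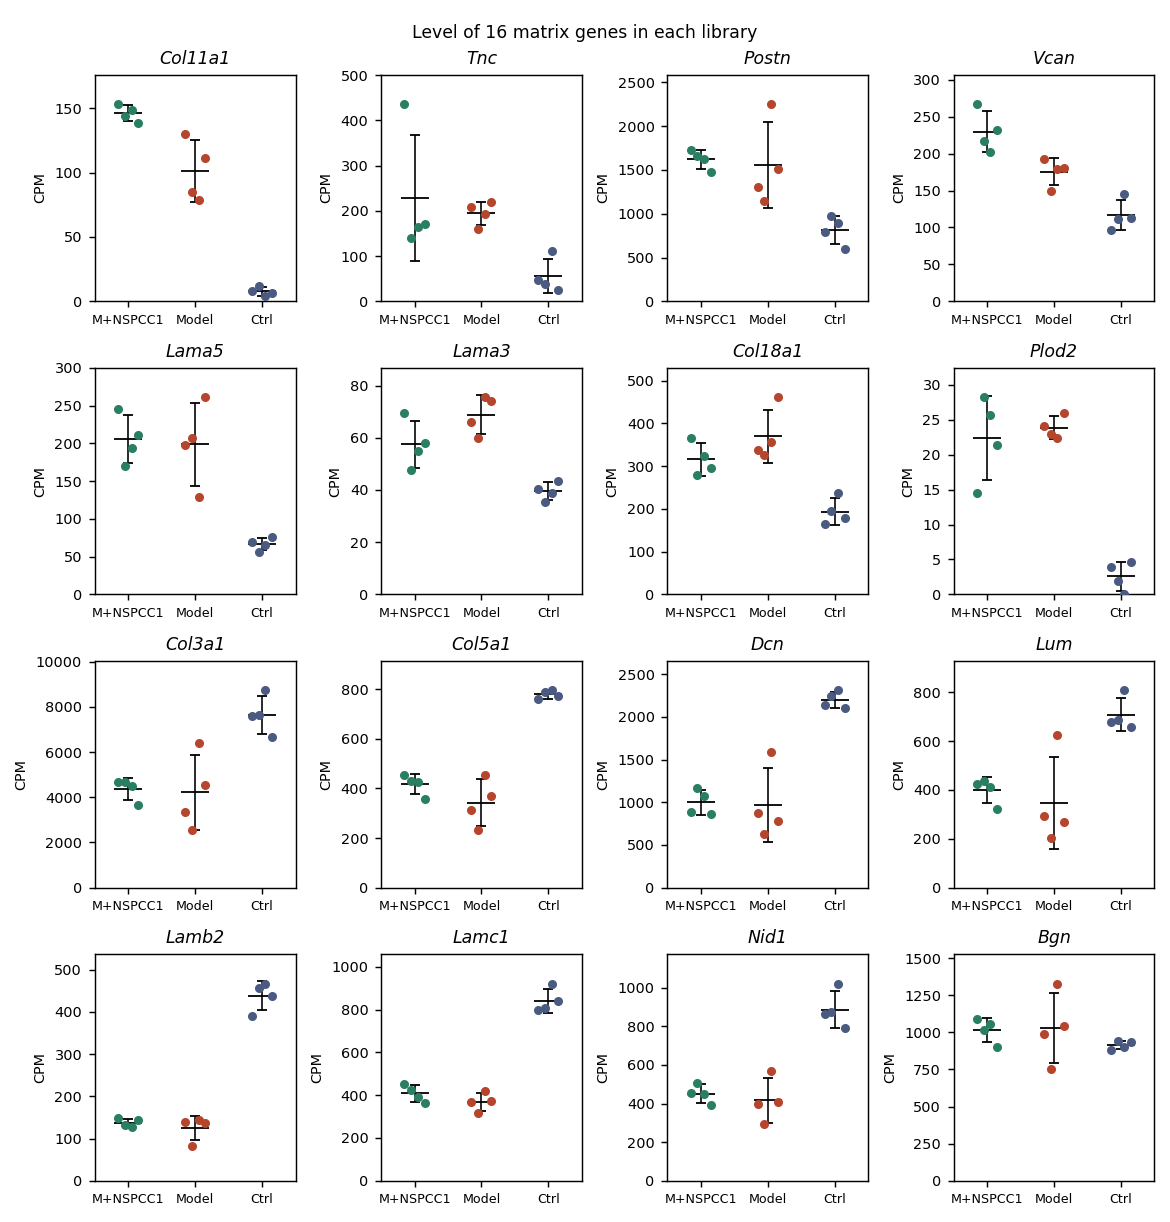
Level in each library (vertical axis, CPM, own scale per gene) of 16 members in M+NSPCC1, Model and Ctrl skin, with group mean and SD (horizontal tick and bars, n = 4). The first 8 panels show members that rose in Model skin, the next 7 members that fell and the last Bgn, which did not pass; Model libraries spread more widely than the others in Col3a1, Dcn and Lum.

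Of the 11 tested matrix glycoproteins 7 fell and 4 rose in Model skin. Postn had 1724, 1655, 1629 and 1473 CPM in M+NSPCC1 skin, 1305, 1150, 2252 and 1510 CPM in Model skin, and 789, 980, 893 and 596 CPM in Ctrl skin. Tnc, which encodes tenascin C, a protein of healing and remodelling tissue, had 436, 139, 165 and 171 CPM in M+NSPCC1 skin, 208, 159, 193 and 219 CPM in Model skin, and 46.0, 39.0, 111 and 25.9 CPM in Ctrl skin. No Model library of either gene overlapped a Ctrl library (log2 fold changes 0.93 ± 0.20 and 1.81 ± 0.46, edgeR adjusted p = 0.00116 and 0.00287). Matn4, a matrilin, had 22.8, 22.4, 24.5 and 24.9 CPM in M+NSPCC1 skin, 16.3, 15.3, 14.9 and 17.1 CPM in Model skin, and 1.88, 4.09, 2.47 and 0 CPM in Ctrl skin. Its fitted log2 fold change was 2.91 ± 0.58, and Ccn4, a secreted target of WNT signalling, rose by 1.22 ± 0.39 (edgeR adjusted p = 0.000629 and 0.011).

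The other tenascin moved against Tnc. Tnxb, which encodes tenascin X, a protein that binds dermal collagen and whose loss gives a hyperextensible skin, had 336, 365, 325 and 223 CPM in M+NSPCC1 skin, 224, 146, 447 and 263 CPM in Model skin, and 809, 1125, 1154 and 1185 CPM in Ctrl skin. The fall was 1.99 ± 0.30 on the log2 scale with a wide gap between the groups (edgeR adjusted p = 7.19e-05). Fn1, which encodes fibronectin, a cell-binding scaffold for other matrix, had 528, 561, 577 and 569 CPM in M+NSPCC1 skin, 431, 288, 1096 and 481 CPM in Model skin, and 1142, 1632, 1683 and 1124 CPM in Ctrl skin. Model library 3 stood just under the lowest Ctrl library (log2 fold change -1.28 ± 0.33, edgeR adjusted p = 0.00351). Sparc had 2379, 2292, 2164 and 1950 CPM in M+NSPCC1 skin, 1856, 1739, 2498 and 2131 CPM in Model skin, and 3420, 3449, 3256 and 3012 CPM in Ctrl skin, a fall of 0.68 ± 0.12 in Model skin. Ccn5, a matricellular protein, had 14.1, 43.7, 17.7 and 19.8 CPM in M+NSPCC1 skin, 14.4, 6.67, 48.7 and 20.1 CPM in Model skin, and 135, 150, 67.1 and 211 CPM in Ctrl skin, and fell by 2.65 ± 0.58. Sparcl1, a relative of Sparc, fell by 1.90 ± 0.28, and the thrombospondins Thbs4 and Thbs3 by 1.78 ± 0.20 and 1.77 ± 0.19.

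All 7 genes of elastic fibre assembly and TGF-beta storage fell, with log2 fold changes between -0.72 (Efemp2) and -1.76 (Emilin2). Emilin2, an elastic fibre glycoprotein, had 111, 110, 95.7 and 74.2 CPM in M+NSPCC1 skin, 33.3, 66.5, 111 and 76.7 CPM in Model skin, and 166, 250, 317 and 243 CPM in Ctrl skin. Ltbp1, which holds TGF-beta in the matrix, had 9.17, 6.12, 1.73 and 4.62 CPM in M+NSPCC1 skin, 9.38, 5.47, 10.9 and 4.75 CPM in Model skin, and 12.6, 22, 24.1 and 23.4 CPM in Ctrl skin. Both fell without overlap. Fbln1 and Fbln2, fibulins that bind elastic fibres and basement membranes, fell by 1.3 ± 0.16 and 1.25 ± 0.22. Ltbp4, which is needed for elastic fibre assembly, had 386, 366, 361 and 314 CPM in M+NSPCC1 skin, 406, 313, 469 and 447 CPM in Model skin, and 646, 776, 652 and 655 CPM in Ctrl skin, and fell by 0.74 ± 0.12. The Model and Ctrl ranges of Efemp2 overlapped, although it passed the test.

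Among the 5 enzymes that hydroxylate collagen during synthesis 4 fell and 1 rose. P4ha1, a prolyl hydroxylase subunit needed for a stable triple helix, had 74.7, 67.7, 61.3 and 56.1 CPM in M+NSPCC1 skin, 70.6, 46.2, 79.3 and 52.8 CPM in Model skin, and 148, 140, 159 and 195 CPM in Ctrl skin. P4ha2, the alternative form of that subunit, had 30.1, 33.3, 26.3 and 26.9 CPM in M+NSPCC1 skin, 34.7, 21.7, 44.1 and 29.4 CPM in Model skin, and 86.8, 94.1, 99.3 and 99.3 CPM in Ctrl skin. Plod1, a lysyl hydroxylase, had 85.1, 90.7, 73.4 and 72.3 CPM in M+NSPCC1 skin, 81.2, 55.2, 121 and 73.8 CPM in Model skin, and 222, 198, 222 and 217 CPM in Ctrl skin. All 3 kept Model and Ctrl libraries apart. P4ha1 and P4ha2 fell by 1.37 ± 0.17 and 1.55 ± 0.18, and the lysyl hydroxylases Plod1 and Plod3 by 1.38 ± 0.19 and 0.78 ± 0.17. The lysyl hydroxylase gene Plod2, whose product modifies the ends of collagen chains and so sets the kind of crosslink, rose by 3.18 ± 0.62 (edgeR adjusted p = 0.000515). It was low throughout, at 14.5, 28.2, 25.7 and 21.3 CPM in M+NSPCC1 skin, 24.2, 23.0, 22.3 and 26.0 CPM in Model skin, and 3.87, 1.99, 0 and 4.64 CPM in Ctrl skin. Plod2 made up 9.64 ± 2.86% of the summed FPKM of the 3 lysyl hydroxylases in M+NSPCC1 skin, 10.6 ± 2.55% in Model skin and 0.600 ± 0.460% in Ctrl skin. Col4a3bp, the member by symbol only, had 34.2, 28.9, 39.8 and 30.6 CPM in M+NSPCC1 skin, 28.3, 37.0, 53.1 and 26.2 CPM in Model skin, and 75.0, 61.1, 72.2 and 82.2 CPM in Ctrl skin.

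The 58 genes were tabled as 87 transcripts, and 81 of these could be tested. By transcript, 17 were higher and 56 lower in Model than in Ctrl skin, beside 49.1% and 41.9% of all transcripts tested. In M+NSPCC1 against Ctrl skin 21 were higher and 56 lower, beside 50.6% and 44.2%, and in M+NSPCC1 against Model skin 0 passed by edgeR. Both Col11a1 transcripts rose, by 3.44 and 4.08 on the log2 scale, and all 4 Fn1 transcripts fell, by between 1.03 and 1.69. Fold changes of 1 gene's transcripts could differ. The main Hspg2 transcript fell by 0.83 and the 2 minor ones by 4.01 and 5.62, and the 2 of Col5a1 fell by 0.91 and 2.12. One Vcan transcript rose by 0.82 and the other did not pass (0.22, edgeR adjusted p = 0.196). For Postn 3 of 4 transcripts rose, by 0.85 to 1.51, and the other had 0.53 (edgeR adjusted p = 0.0749). One Col18a1 transcript averaged 68.0 estimated counts in Ctrl skin and 0 in M+NSPCC1 and Model skin, while the other 2 rose by 1.03 and 0.93. Estimates for transcripts of a gene share reads and are less certain than gene sums.

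Promoter sequence is shown for the member with the largest rise and for the 2 highest by FPKM in each direction, so that the start regions of genes that moved oppositely can be set side by side. Each was read 5′ to 3′ on the gene's strand from the 250 bases before the first start in RefSeq's GRCm38.p6 promoter table. For Col11a1 the last 61 of these lie inside the annotated gene, whose outermost start is further upstream, and are left out. Capitals mark matches on either strand to any of 7 motifs. The TATA box was searched as TATAAA, the box named by its own letters as CCAAT, and the box bound by SP factors as GGGCGG. The site of the AP factor family was searched as TGANTCA, the SMAD site as CAGACA, the TEAD site as GGAATG and the TCF/LEF site as CTTTGAT. No match overlapped another in the stretches shown.
Col11a1 (rose; chr3:114030290-114030478, plus strand): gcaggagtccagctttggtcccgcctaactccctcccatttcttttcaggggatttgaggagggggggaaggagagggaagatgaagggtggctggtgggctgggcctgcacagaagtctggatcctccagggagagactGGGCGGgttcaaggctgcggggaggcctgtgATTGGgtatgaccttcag
Postn (rose; chr3:54359017-54359266, plus strand): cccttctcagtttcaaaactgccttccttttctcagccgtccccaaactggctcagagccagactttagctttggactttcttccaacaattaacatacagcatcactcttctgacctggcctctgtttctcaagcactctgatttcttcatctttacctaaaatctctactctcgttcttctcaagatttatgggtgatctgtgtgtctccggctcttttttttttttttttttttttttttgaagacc
Col18a1 (rose; chr10:77166531-77166780, minus strand): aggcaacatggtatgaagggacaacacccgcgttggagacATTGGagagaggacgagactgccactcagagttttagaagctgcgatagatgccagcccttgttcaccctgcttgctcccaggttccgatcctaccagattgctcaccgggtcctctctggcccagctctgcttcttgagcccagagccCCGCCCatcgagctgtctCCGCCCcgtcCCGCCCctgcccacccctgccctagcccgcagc
Sparc (fell; chr11:55420081-55420330, minus strand): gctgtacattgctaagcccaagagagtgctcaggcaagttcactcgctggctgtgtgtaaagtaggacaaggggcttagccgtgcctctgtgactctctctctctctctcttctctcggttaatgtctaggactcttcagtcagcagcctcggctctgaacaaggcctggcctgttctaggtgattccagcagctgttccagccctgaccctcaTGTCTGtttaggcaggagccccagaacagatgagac
Col3a1 (fell; chr1:45311288-45311537, plus strand): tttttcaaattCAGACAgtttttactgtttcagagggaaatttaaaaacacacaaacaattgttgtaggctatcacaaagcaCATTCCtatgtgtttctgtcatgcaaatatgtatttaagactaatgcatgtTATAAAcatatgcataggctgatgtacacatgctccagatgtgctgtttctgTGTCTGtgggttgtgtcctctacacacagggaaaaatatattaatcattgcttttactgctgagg
The Col11a1 and Col18a1 stretches held both the CCAAT and the SP box, the Sparc and Col3a1 stretches SMAD letters, and the Postn stretch none of the 7 motifs. Promoters were listed for 43 of the 58 members, among them 7 that rose and 30 that fell in Model skin. Shares are of the full 250 bases, which reach into the annotated gene for 24 of the 43. The SP box was present in 5 of the 7 (71.4%) and 14 of the 30 (46.7%), beside 32.9% of the 27025 promoters of all genes. The CCAAT box was in 57.1% and 26.7%, beside 34.5%, and the TATA box in 14.3% and 10%, beside 13%. The SMAD letters were in 0 of the 7 and 10 of the 30 (33.3%), beside 17.1% of all. Those of TEAD (0 and 16.7%, beside 12.6%), the AP family (0 and 3.33%, beside 6.87%) and TCF/LEF (0 and 3.33%, beside 3.23%) were also in 0 of the 7. A match is a description of the letters only.

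Genes outside the 58 that make, trim, break down or bind this matrix were taken from 6 lists, measured only in part. Measured were 9 of 18 listed genes of folding and secretion, 11 of 14 of trimming and crosslinking and 5 of 14 of breakdown. For matrix receptors it was 12 of 19, for other basement membrane proteins 12 of 19 and for TGF-beta signalling 5 of 13. All 9 tested genes of collagen folding and secretion fell in Model skin (median log2 fold change -0.996), among them Tmem38b, an endoplasmic reticulum ion channel needed for collagen secretion (-1.92), and Colgalt1, which adds sugar to collagen (-0.74). Of 11 measured genes of collagen trimming and crosslinking 9 were tested, of which 7 fell and 1 rose. Lox, a crosslinking oxidase, was at 0 in all Ctrl libraries but not in all Model or all M+NSPCC1 libraries, so it could not fall. Pcolce, an enhancer of procollagen trimming, fell by 1.49 ± 0.20 and Loxl3, a crosslinking oxidase, by 2.16 ± 0.24, while Adamts3, a procollagen protease, rose by 1.48 ± 0.26. Of 5 genes of collagen breakdown or its inhibition 4 fell, with Mrc2, a collagen uptake receptor, at -1.60 and Timp2, a protease inhibitor, at -1.27.

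Receptors and other basement membrane proteins had counts near the shares over all genes (49.1% rose and 41.4% fell). Of 12 matrix receptors 6 rose and 4 fell. Sdc1, a syndecan, and Ddr1, a collagen-binding kinase, rose by 1.74 ± 0.09 and 0.96 ± 0.08, and Sdc2, another syndecan, and Itga11, a collagen-binding integrin, fell by 1.18 ± 0.14 and 1.01 ± 0.15. Of 10 other basement membrane proteins 5 rose and 4 fell, with Fermt1, an epidermal integrin activator, at 2.31, Ntn4, a laminin-binding netrin, at 1.33, Dst, a linker of cytoskeleton to hemidesmosomes, at -1.78 and Smoc2, a relative of Sparc, at -0.99. Of 5 genes of TGF-beta signalling, a main inducer of collagen genes, 3 rose and 2 fell, which is also near those shares. Tgfb2, a ligand, and Tgfbr2, a receptor, fell by 1.58 ± 0.29 and 1.52 ± 0.25. The pathway inhibitors Smad7 and Skil rose by 1.46 ± 0.10 and 0.67 ± 0.10. In M+NSPCC1 against Model skin 0 genes of the 6 lists passed by edgeR.

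Markers of whole cell types moved in Model skin with the members, where 41.4% of all genes tested fell and 49.1% rose. All 10 tested fibroblast markers fell, and their summed level was 1392 to 2037 CPM in M+NSPCC1, 1017 to 2484 in Model and 5077 to 5710 in Ctrl libraries. Markers of skeletal muscle (10 of 10 fell; 8058 to 12170 CPM in M+NSPCC1, 3610 to 11420 in Model and 61220 to 65190 in Ctrl libraries), endothelium (8 of 8), smooth muscle (5 of 5), Schwann cells (5 of 5), adipocytes (4 of 4) and macrophages (7 of 7) fell too. Hair follicle markers were 17950 to 30800 CPM in M+NSPCC1 and 23070 to 36250 in Model libraries against 43.3 to 251 CPM in Ctrl libraries (10 of 10 rose), and 5 of 5 dermal papilla markers rose (246 to 302 CPM in M+NSPCC1, 157 to 257 in Model and 17.7 to 30 in Ctrl libraries). Of 3 basal keratinocyte markers measured, from 6 listed, 2 rose and 1 fell. Their summed level was 3140 to 5075 CPM in M+NSPCC1, 3765 to 6213 in Model and 2493 to 3049 in Ctrl libraries. Of 2 suprabasal ones measured, from 7 listed, 1 rose and 1 fell. Their sum was lower in Model skin, at 1762 to 2873 CPM in M+NSPCC1, 1286 to 2767 in Model and 4169 to 6023 in Ctrl libraries. No marker was at 0 in all libraries of a group. The part of these cell types in the matrix changes was not tested.

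The 4 Model libraries differed in the members more than the other groups did. Among the 40 members that fell, Model library 3 was the highest of the 4 for 38 and Model library 2 the lowest for 34, beside 77.0% and 59.7% of the 3160 genes that fell. Their summed level was 13850, 14110, 13270 and 11300 CPM in M+NSPCC1 skin, 10930, 8512, 18080 and 12490 CPM in Model skin, and 25280, 26870, 28240 and 24410 CPM in Ctrl skin. Fibroblast markers took the same order at their ends, with 1367, 1017, 2484 and 1164 CPM in the Model libraries. Taking the 52 members that averaged 10 CPM or more, the SD of log2 CPM within M+NSPCC1, Model and Ctrl skin had a median of 0.20, 0.42 and 0.21, beside 0.14, 0.24 and 0.15 over all such genes. Without Model library 3, 40 members fell and 11 rose, and the medians were -1.27 for fibrillar, -1.27 for basement membrane and -1.47 for other members.

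**Figure D4:**
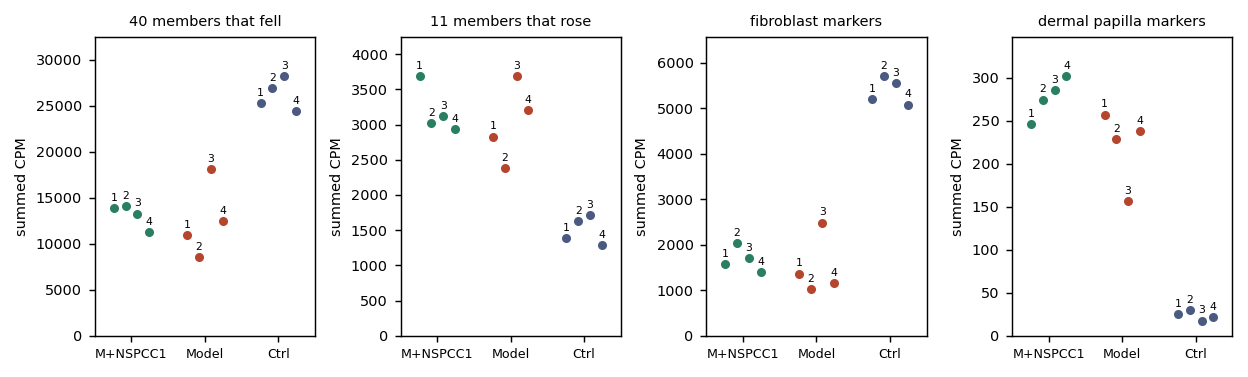
Summed CPM (vertical axis) in each library, numbered by replicate, of the 40 members that fell and the 11 that rose in Model against Ctrl skin, and of fibroblast and dermal papilla markers. Model library 3 is highest and Model library 2 lowest for the fallen members and for the fibroblast markers, and Model library 3 is lowest of the Model libraries for the dermal papilla markers.

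M+NSPCC1 against Model skin asks what the extract did within the ageing model. No member passed in either direction by edgeR's quasi-likelihood method (0% of all 7638 genes did), and none did by DESeq2 or limma; by DESeq2 0.95% of all genes passed. At an unadjusted p under 0.05 there were 5 members (Col22a1, Vcan, Col27a1, Col11a1 and Thbs4), beside 6.57% of all genes. The smallest edgeR adjusted p was 0.36, for Col22a1, which was tested only through its Ctrl counts. The median log2 fold change was 0.09 over the members and 0.01 over all genes tested. Above 0 were 42 of 56 members, beside 3937 of all 7638 genes. Many members shared the order of the Model libraries described above, so they are not separate observations. The 95% interval stayed within 2-fold in both directions for 42 of the 56 (75.0%, and 77.1% of all genes) and within 1.5-fold for 25 (44.6%, and 54.7% of all genes).

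The members nearest to a difference were all higher in M+NSPCC1 skin. The 4 M+NSPCC1 libraries lay above the 4 Model libraries for 6 members (Lamb1, Col11a1, Col27a1, Matn4, Col22a1 and Vcan) and below them for 0, beside 1.3% and 2.89% of all genes. Col22a1 had 0.733, 0.742, 0.638 and 0.533 CPM in M+NSPCC1 skin and 0, 0.185, 0 and 0.186 CPM in Model skin, which is at most 8 counts in any of these libraries. Its log2 fold change was 2.66 ± 0.64 (edgeR quasi-likelihood, adjusted p = 0.36). Neither group compared here had enough counts for a test of Col22a1, which was tested only through its Ctrl counts. For Vcan, described above, the log2 fold change was 0.39 ± 0.13 (edgeR adjusted p = 0.614) and for Col11a1 0.53 ± 0.23 (edgeR adjusted p = 0.699). None of these differences passed. Vcan and Col11a1 were also above Ctrl in Model skin, so theirs point away from the Ctrl level, and the one of Col22a1 towards it. Thbs4, at means of 140, 102 and 351 CPM in M+NSPCC1, Model and Ctrl skin, also points towards it. Col27a1 averaged 8.54, 2.48 and 5.94 CPM, from below the Ctrl mean to above it.

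For the abundant matrix genes the interval of the difference was moderate. Col3a1 had a log2 fold change of 0.05 (95% interval -0.46 to 0.57), Dcn 0.04 (-0.48 to 0.57), Postn 0.06 (-0.38 to 0.50) and Sparc 0.10 (-0.17 to 0.36). Lamc1 had 0.15 (-0.07 to 0.37) and Lama5 0.05 (-0.36 to 0.46). Tnc had 0.23 (-0.74 to 1.19) with M+NSPCC1 library 1, at 436 CPM, and -0.30 without it. Fn1 had -0.04 (-0.76 to 0.68) with Model library 3, at 1096 CPM, and 0.48 without it (edgeR adjusted p = 0.258).

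M+NSPCC1 against Ctrl skin, which shares its Ctrl libraries with the first comparison, gave 13 higher and 40 lower members of 56 by the same edgeR fit, where 50.1% and 43.1% of all genes rose and fell, 93.2% in all. The M+NSPCC1 libraries all lay above the Ctrl libraries for 14 members and all below them for 39, beside 47.4% and 42.5% of all genes. The median log2 fold change was -1.05 over the members and 0.27 over all genes tested. Medians were -0.81 for fibrillar, -1.03 for basement membrane and -1.14 for other members. Col11a1 stood at 4.26 ± 0.27, Plod2 at 3.09 ± 0.62, Lama5 at 1.61 ± 0.19 and Postn at 0.99 ± 0.21, while Col3a1 stood at -0.81 ± 0.24, Dcn at -1.14 ± 0.24, Tnxb at -1.78 ± 0.29 and Lamb2 at -1.67 ± 0.16. Col16a1, a minor fibril-associated collagen, rose by 0.98 ± 0.31 to a mean of 22.2 ± 5.89 CPM in M+NSPCC1 skin against 11.3 ± 4.05 CPM in Ctrl skin (edgeR adjusted p = 0.00982). Bgn (0.15, edgeR adjusted p = 0.298) and Col27a1 (0.52, edgeR adjusted p = 0.47) did not pass, and the call depended on the setting. The fit of all 3 groups shared 1 estimate of the spread, to which the Model libraries contribute. Bgn passed as higher with relative depth (0.37, adjusted p = 0.0196), in a fit of only the 8 libraries compared (0.20, adjusted p = 0.0216) and by limma (0.36 to 0.37, adjusted p = 0.0203 to 0.0242), and Col27a1 in that 8-library fit (0.57, adjusted p = 0.033) and by limma with no filter (0.26, adjusted p = 0.032).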

How the data were processed

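RNA was extracted with TRIzol and mRNA libraries were made, per the labels' protocols. Per the submitters' processing notes, the tools used included RSEM 1.3.1, HISAT2 2.2.1 and DESeq2 1.34.0, with build mm10 and no role stated. The tables deposited by the authors give an estimated count per transcript, not normalized. They also give an FPKM per transcript, which the authors scaled to length and library size. Counts were summed by gene ID and rounded. For 16 of the 58 members the sums were whole numbers in all 12 libraries. For the others part of a gene's reads may lie on transcripts not analysed here. Shares within a set of genes may therefore compare partial genes with whole ones. Estimated counts were scaled by TMM and tested with edgeR 4.0.16 (filterByExpr, quasi-likelihood test, Benjamini-Hochberg over all genes tested) in 1 fit of the 3 groups, in R 4.3.3. The groups shared 1 estimate of the spread in that fit, so each SE and interval also draws on the group not compared. CPM values use the same scaling. DESeq2 1.42.0 and limma 3.58.1 on log2(FPKM + 1), which understates changes of low genes, were alternatives, as were other scalings, filters, each library left out and a replicate block. The summed counts per library limit the precision of low members. The members, the gene lists and the genes given library by library were chosen with earlier results of these data known. Library values are given for a fixed set of main matrix genes, for the 2 largest rises and falls of each class among members that passed and averaged at least 1 CPM, and for the 4 smallest p in each direction in M+NSPCC1 against Model; from each list, the 2 smallest p in each direction are named. Lama2, Lama4 and Col14a1 were added after their values were seen. One gene of that set is not reported here. The fit was tested on simulated data. Sequences are from RefSeq's GRCm38.p6 promoter table.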

Additional observations from a re-analysis of the deposited data

Results flagged for a closer look

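Members with library values were looked over for a library far from the other 3 of its group, which chance gives in about 1 of 20 groups; 5 of 114 groups held one. Tnc was at 436 CPM in M+NSPCC1 library 1, against 139 to 171 CPM in the others of the group. Col27a1 was highest in the same library, at 10.8 CPM against 7.65 to 7.97. Lamb2 was low in Model library 2, at 81.7 CPM against 137 to 143. In Ctrl skin, Tnxb was low in library 1 (809 CPM against 1125 to 1185) and Ltbp4 high in library 2 (776 CPM against 646 to 655).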

How the results depend on the processing

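At gene level, the alternatives called 11 to 13 members higher and 39 to 41 lower in Model against Ctrl skin, and 12 to 16 and 39 to 41 in M+NSPCC1 against Ctrl, while over all genes the shares were 41 to 54.3% and 40.1 to 42.6%, and 42.3 to 56.1% and 41 to 44%; by transcript, added after seeing the data, 17 and 21 were higher in Model and M+NSPCC1 against Ctrl. DESeq2 size factors moved the median of all genes in Model against Ctrl by -0.17 and relative depth by 0.18 (log2). Model against Ctrl medians moved to -1.42 (basement membrane) and -1.55 (other) over members with whole-number sums (also added after seeing the data), to -0.89 and -0.74 (fibrillar, basement membrane) with limma on log2(FPKM + 1), and to -0.76, -0.74 and -0.75 (with other) unfiltered; leaving out each library gave -1.27 to -0.84 for fibrillar members. M+NSPCC1 against Ctrl medians of basement membrane members were -1.30 (whole sums), -1.19 (DESeq2 size factors and DESeq2), -0.82 (relative depth), -0.68 (limma), -0.81 (pseudocount 0.1) and -0.68 (unfiltered), and of other members -0.93 (relative depth), -0.78, -0.92 and -0.77 (limma, in that order). The causes were not tested.

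Replicate numbers did not pair the samples (correlations of -0.16 to 0.12 between same-numbered libraries), and the replicate block gave 11 higher and 40 lower, 13 and 40, and 0 and 0. No called value changed sign. Bgn in M+NSPCC1 against Ctrl became -0.004 (DESeq2 size factors) and -0.002 (DESeq2), and passed as higher under relative depth, the 8-library fit and 3 limma settings (0.20 to 0.37). In M+NSPCC1 against Model, Fn1 became 0.015 (relative depth), 0.10 (block), 0.18, 0.18 and 0.18 (limma), Bgn 0.024 (relative depth) and 0.046 (limma), and Plod1 0.001 (relative depth), 0.041, 0.046 and 0.041 (limma). Leaving out each library gave ranges across 0 for Col3a1 (-0.12 to 0.33), Col7a1 (-0.059 to 0.39), Lama5 (-0.11 to 0.21), Nid1 (-0.015 to 0.30), Hspg2 (-0.12 to 0.032), Fn1 (-0.25 to 0.48), Tnc (-0.30 to 0.40), Postn (-0.054 to 0.29), Dcn (-0.11 to 0.39), Bgn (-0.13 to 0.13), P4ha1 (-0.050 to 0.20), Plod2 (-0.22 to 0.070), Lamb2 (-0.018 to 0.20), P4ha2 (-0.30 to 0.027), Plod1 (-0.19 to 0.20), Col5a3 (-0.059 to 0.18), Ccn5 (-0.38 to 0.79), Col12a1 (-0.079 to 0.19), Ogn (-0.43 to 0.16) and Col4a3bp (-0.24 to 0.13).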
